A study of Mus musculus with 4 samples.

Results

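The miR-106b/93/25 cluster is a set of 3 microRNA (miRNA) hairpins inside the gene Mcm7, followed here in small RNA of plasma exosome preparations. Its members were chosen by name and are mmu-miR-106b-5p, mmu-miR-106b-3p, mmu-miR-93-5p and mmu-miR-25-3p, 4 of the 1809 miRNAs listed for all libraries (mmu stands for mouse and is mostly left out from here on). The gp49B KO mice carried the genotype gp49B-/- and the WT mice were wild type, all of strain C57BL/6. gp49B is an inhibitory receptor of myeloid cells. Every mouse, WT included, had received cells of the mouse lung tumour line LLC (Lewis lung carcinoma) by the intravenous route 21 days before plasma was taken, so no tumour-free group is part of the comparison. Each genotype had 2 libraries, numbered pool 1 and pool 2, and a library was made from 4 pooled plasma samples in KO and 3 in WT. The labels do not say whether the pools of a genotype came from different mice, nor the animals' age or sex. The p-values therefore rest on the spread between these libraries and cannot be said to measure that between mice. The number of samples pooled also differed with genotype. Small RNA does not report on the deleted gene, and the genotype labels could not be tested with it.

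The cluster lies on the minus strand of mouse chromosome 5 in the GRCm38 build. It spans 498 bases, 138165321 to 138165818, within intron 13 of the 15-exon Mcm7 transcript Mcm7-201 (intron 138165162 to 138165909, GENCODE M21). Mcm7 encodes a subunit of the helicase that unwinds DNA at replication, and its transcription follows the cell cycle under E2F factors. The miRNAs are cut from the same intron and repress genes such as Cdkn1a and Bcl2l11, which restrain the cell cycle or survival. In human blood, miR-25 and miR-93 are known as abundant red cell miRNAs. A miRNA finds its targets mainly through its seed, bases 2 to 8 from the 5′ end. The 3 hairpins are shown first, in transcription order and in lower case, because they show the arms that were counted. Their sequences are from RefSeq (GRCm38.p6), and capitals mark the 5p arm and then the 3p arm.
miR-106b hairpin: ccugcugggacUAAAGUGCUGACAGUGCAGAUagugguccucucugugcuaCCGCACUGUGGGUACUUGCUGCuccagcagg
miR-93 hairpin: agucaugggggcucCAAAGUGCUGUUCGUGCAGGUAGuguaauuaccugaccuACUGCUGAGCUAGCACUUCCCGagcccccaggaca
miR-25 hairpin: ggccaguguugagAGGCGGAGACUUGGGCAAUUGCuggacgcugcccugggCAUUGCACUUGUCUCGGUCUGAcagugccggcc

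The mature members and the most abundant relatives of other clusters fall into seed groups, and the sequences are set side by side, with the seed in capitals, to show which of them share one. The first 4 have the seed of the miR-17 family, the next 2 the seed of the miR-25 and miR-92 family, and the last, miR-106b-3p, has neither.
miR-106b-5p: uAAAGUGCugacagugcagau
miR-93-5p: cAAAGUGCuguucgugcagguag
miR-17-5p: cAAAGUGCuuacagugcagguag
miR-20a-5p: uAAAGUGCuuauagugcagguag
miR-25-3p: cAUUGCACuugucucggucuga
miR-92a-3p: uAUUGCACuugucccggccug
miR-106b-3p: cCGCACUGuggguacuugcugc
All 4 members matched RefSeq by name, and their positions there equalled those deposited by the authors (miR-106b-5p 138165787 to 138165807, miR-106b-3p 138165746 to 138165767, miR-93-5p 138165574 to 138165596 and miR-25-3p 138165332 to 138165353). Aligned from the first base without gaps, miR-106b-5p differed from miR-17-5p, from miR-20a-5p and from miR-106a-5p at 3 of 21 positions each, and from its cluster neighbour miR-93-5p at 5 of 21. Between miR-25-3p and miR-92a-3p 3 of 21 positions differed, and between miR-93-5p and miR-17-5p 4 of 23. No source used here says how the counting told such close sequences apart, so the counts of these relatives carry that uncertainty.

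Libraries were counted in unique molecular identifiers (UMIs), tags put on single RNA molecules before amplification. Over all features KO pools 1 and 2 had 1729201 and 3645842 UMIs, and WT pools 1 and 2 had 1607218 and 3179081. Pool number rather than genotype separated the libraries in depth per molecule: there were 5.70 reads per UMI in KO pool 1 and 5.29 in WT pool 1, and 2.11 and 1.69 in KO pool 2 and WT pool 2. The scaling factors of TMM (a method that sets most miRNAs to no change) also split by pool number, at 1.50 in KO pool 1 and 1.70 in WT pool 1, and 0.684 and 0.574 in KO pool 2 and WT pool 2. Within a pool number the choice of scaling moves every ratio together: scaled on total UMIs the median KO over WT ratio of the 1797 miRNAs tested was 0.878 in pool 1 and 1.18 in pool 2, and with TMM it was 0.991 and 0.989. Ratios are therefore given with TMM, with the ratio on total UMIs where it changes side.

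The first question was how much of the plasma vesicle miRNA the cluster supplied. Its 4 members together held 2.27% of miRNA UMIs in KO pool 1 (exact 95% binomial interval 2.25 to 2.29%, counting error only) and 3.37% of them in KO pool 2, and WT pools 1 and 2 had 3.32% and 3.07%. The KO values enclose both WT values, so the genotypes overlap. The mean share of the KO libraries was 2.82 ± 0.78% and that of the WT libraries 3.19 ± 0.17% (SD, n = 2 each). Their difference was -0.37 percentage points, with a two-sided exact permutation p of 1, and it turned to 0.18 when KO pool 1 was left out. A design of 2 against 2 libraries cannot give a p below 0.333.

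Nearly all of that came from miR-25-3p and miR-93-5p, which were among the most abundant miRNAs of the preparations. Counts of mmu-miR-25-3p, the seed relative of miR-92a, were 19999 and 63550 UMIs in KO pools 1 and 2, against 27049 and 48185 in WT pools 1 and 2. As shares these were 1.17% and 1.75% in KO and 1.71% and 1.52% in WT, at ranks 17 and 8 in KO and 7 and 7 in WT among 1809 miRNAs. KO pool 1 had the lowest share and KO pool 2 the highest, with both WT libraries between them. For mmu-miR-93-5p, the cluster's most abundant miRNA with the miR-17 seed, there were 17769 and 54850 UMIs in KO pools 1 and 2 and 24130 and 45253 in WT pools 1 and 2. Its shares were 1.04% and 1.51% in KO and 1.53% and 1.43% in WT, at ranks 18 and 9 in KO and 10 and 9 in WT. Again KO pool 1 was the low library, and the other 3 lay close together.

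The miR-106b hairpin was counted at far lower levels, and more from its 3p arm than from its 5p arm, which is usually taken as the guide strand. mmu-miR-106b-3p had 756 and 3621 UMIs in KO pools 1 and 2, against 878 and 3705 in WT pools 1 and 2. That was 0.0442% and 0.0997% of miRNA UMIs in KO and 0.0556% and 0.117% in WT, so both pool 2 libraries were above both pool 1 libraries. mmu-miR-106b-5p had 249 and 240 UMIs in KO pools 1 and 2, against 253 and 159 in WT pools 1 and 2. Its shares ran the other way between pool numbers, at 0.0146% and 0.00661% in KO and 0.0160% and 0.00502% in WT. Of the miRNAs that averaged at least 100 UMIs, 3.41% had both pool 2 shares above both pool 1 shares, as miR-106b-3p did, and 78.1% had them below, as miR-106b-5p did. In all 4 libraries the order of levels was miR-25-3p, miR-93-5p, miR-106b-3p and miR-106b-5p, and the binomial intervals of neighbours did not overlap in any library. These intervals cover counting error within a library. Between libraries, the SDs of miR-25-3p and miR-93-5p after scaling were several times the gap between their means, so the gap between that pair is seen only within a library.

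**Figure D1:**
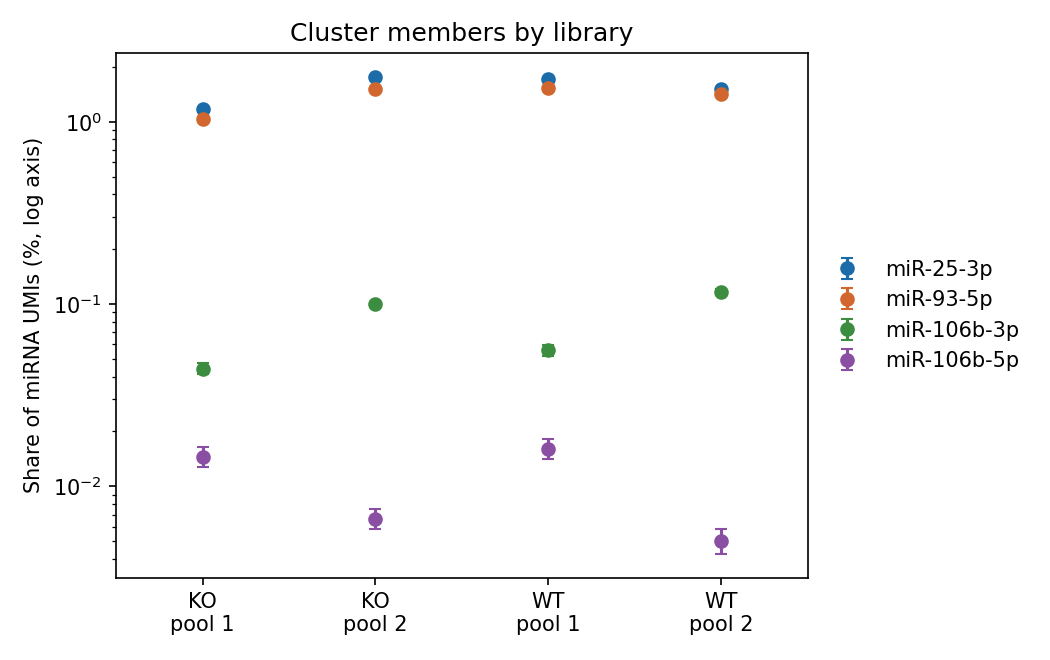
Share of all miRNA UMIs (percent, log axis) of the 4 cluster members in each of the 4 libraries, with exact 95% binomial intervals as bars. miR-25-3p and miR-93-5p lie between 1.04% and 1.75% in every library, miR-106b-3p between 0.0442% and 0.117%, and miR-106b-5p between 0.00502% and 0.0160%.

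The levels of the neighbouring hairpins of one intron thus differed widely, but the ratio between the 2 leading members was nearly fixed. There were 1.13 and 1.16 molecules of miR-25-3p for each of miR-93-5p in KO pools 1 and 2, and 1.12 and 1.06 in WT pools 1 and 2. By contrast miR-93-5p outnumbered miR-106b-5p by 71.4 and 229 to 1 in KO and by 95.4 and 285 to 1 in WT, so this ratio was about 3 times higher in pool 2 than in pool 1 of either genotype. Counts of different miRNAs also depend on how well each is captured in the library, which was not measured here. Reads per UMI were alike among the members within a library, for example 6.78 for miR-93-5p, 6.43 for miR-25-3p, 6.70 for miR-106b-3p and 5.90 for miR-106b-5p in KO pool 1.

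The arms of each hairpin were compared next, since a ratio between 2 arms needs no scaling between libraries. For miR-106b the 5p arm made up 24.8% of 1005 molecules in KO pool 1 (exact 95% interval 22.1 to 27.6%) and 6.22% of 3861 in KO pool 2 (5.47 to 7.02%). In WT it made up 22.4% of 1131 molecules in pool 1 (19.97 to 24.9%) and 4.11% of 3864 in pool 2 (3.51 to 4.79%). The 5p share was thus higher in KO than in WT within each pool number, by little beside the gap between pool numbers. In pool 1 the intervals of KO and WT overlap. Its mean was 15.5 ± 13.1% over the KO libraries and 13.2 ± 12.9% over the WT libraries (SD, n = 2 each). The difference was 2.25 percentage points, with a two-sided exact permutation p of 0.667. The genotypes overlap. Leaving out 1 library leaves the pool numbers unequal between genotypes, so the values without it mainly carry the gap between pool numbers: the difference was -7.03 percentage points when KO pool 1 was left out and 11.5 when KO pool 2 was, and it was 11.4 or -6.87 when the library left out was WT pool 1 or WT pool 2.

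The other hairpins of the cluster kept to one arm in every library. For miR-93 the 5p arm held 99.1% and 99.4% of molecules in KO pools 1 and 2 and 99.2% and 99.4% in WT pools 1 and 2, with 154 and 305 UMIs of miR-93-3p in KO and 195 and 290 in WT. For miR-25 the 5p arm held 0.488% and 0.401% in KO and 0.526% and 0.444% in WT, with 98 and 256 UMIs of miR-25-5p in KO and 143 and 215 in WT. Among 44 hairpins with a mean of 100 or more UMIs from each arm, the change of log2(5p over 3p) from pool 1 to pool 2 was -2.53 for miR-106b, the third in size, against 0.49 for miR-93 and -0.26 for miR-25 and a median size of 0.59. In 31 of the 44 both pool 2 ratios lay on one side of both pool 1 ratios, and in 13 of these the 5p arm was the lower in pool 2, as in miR-106b. Reads per UMI, the TMM factors and the smallest count above 0 (10 in both pool 1 libraries, 2 in KO pool 2 and 1 in WT pool 2) also differed by pool number, and their part in the arm ratio was not tested.

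**Figure D2:**
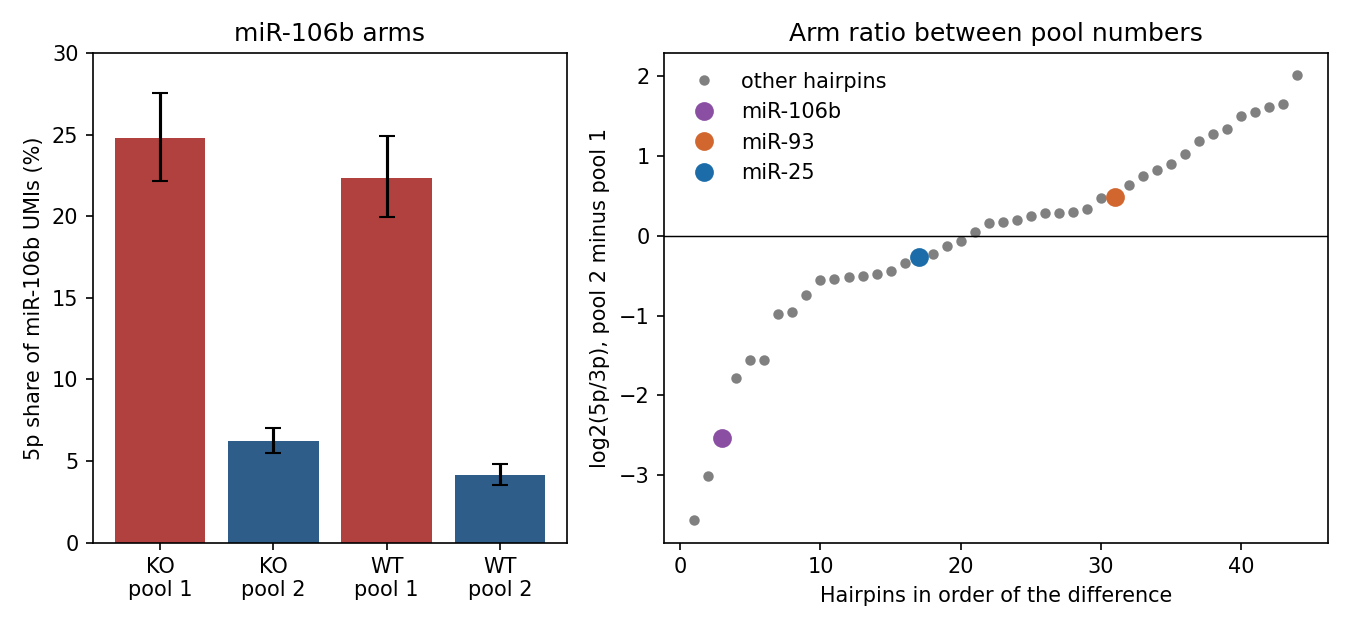
Left, the 5p share of miR-106b UMIs (percent) in the 4 libraries, with exact 95% binomial intervals, red for pool 1 and blue for pool 2. Right, the difference in log2(5p over 3p) between the mean of the pool 2 and the mean of the pool 1 libraries for 44 hairpins in order of size, where miR-106b is the third from the low end at -2.53.

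The main comparison asks whether the cluster differs between gp49B KO and WT plasma vesicles. None of the 4 members passed edgeR's quasi-likelihood test with Benjamini-Hochberg adjustment, and 0% of the 1797 miRNAs tested did, so the members do not stand out from the table. At an unadjusted p under 0.05 there were 32 miRNAs (1.78%) and 0 of the 4 members, and DESeq2 and limma-voom also called 0, with 28 and 27 at that unadjusted threshold. On the scale of TMM-scaled CPM, the UMIs per 1e+06 of a library, miR-93-5p averaged 14507 ± 10733 in KO and 16947 ± 11213 in WT, and miR-25-3p 16693 ± 12597 in KO libraries and 18298 ± 11581 in WT libraries (SD, n = 2 each). The SD of each is large beside its mean, because the pool 2 libraries were about 3 times as high as the pool 1 libraries on this scale. The estimates were small beside their errors: the log2 fold change was -0.22 (SE 0.97) for miR-93-5p and -0.13 (SE 0.98) for miR-25-3p. For miR-106b-3p, at 877 ± 823 CPM in KO and 1182 ± 1208 CPM in WT, it was -0.43 (SE 0.94), and for miR-106b-5p, at 96.8 ± 0.18 CPM in KO and 91.0 ± 5.05 CPM in WT, it was 0.09 (SE 0.48). The edgeR adjusted p was 0.99995 for each member. With SEs of this size, changes of 2-fold in either direction were not detectable in this fit, and the test does not show that levels were alike. The fit had no term for pool number, so the gap between pool numbers counts as error in these SEs. Leaving out 1 library also leaves the pool numbers unequal here. When KO pool 1 was left out, the estimates of miR-93-5p, miR-25-3p and miR-106b-3p turned to 0.40, 0.50 and 0.33, and with WT pool 2 left out to 0.69, 0.72 and 1.42. They were -1.29, -1.23 and -2.01 when KO pool 2 was left out, and -0.75, -0.64 and -1.19 when WT pool 1 was.

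Within a pool number, where only 1 library stands for each genotype and no test of genotype is possible, the leading pair was lower in KO in pool 1. With TMM the KO over WT ratio in pool 1 was 0.767 for miR-93-5p (exact 95% interval 0.752 to 0.782, counting error only) and 0.770 for miR-25-3p (0.756 to 0.784). In pool 2 the ratios were 0.888 (0.877 to 0.899) for miR-93-5p and 0.967 (0.955 to 0.978) for miR-25-3p, and on total UMIs these pool 2 ratios turned to 1.06 and 1.15. The ratios of the 2 miRNAs were nearly equal in pool 1, and in pool 2 miR-25-3p had the higher ratio. The ratios of miR-106b-3p for pools 1 and 2 were 0.897 (0.813 to 0.990) and 0.716 (0.684 to 0.750), and they stayed below 1 on total UMIs, at 0.795 and 0.853. For miR-106b-5p the intervals with TMM held 1 in both pools, at 1.03 (0.857 to 1.23) and 1.11 (0.902 to 1.36). On total UMIs the ratio of pool 1 was 0.908 (0.759 to 1.09), and that of pool 2 was 1.32 (1.07 to 1.62), an interval above 1. So with TMM 3 of 4 members were lower in both KO pools, as were 22.2% of the 352 miRNAs averaging at least 100 UMIs. On total UMIs 1 of 4 was lower in both KO pools, as were 14.2% of the 352.

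**Figure D3:**
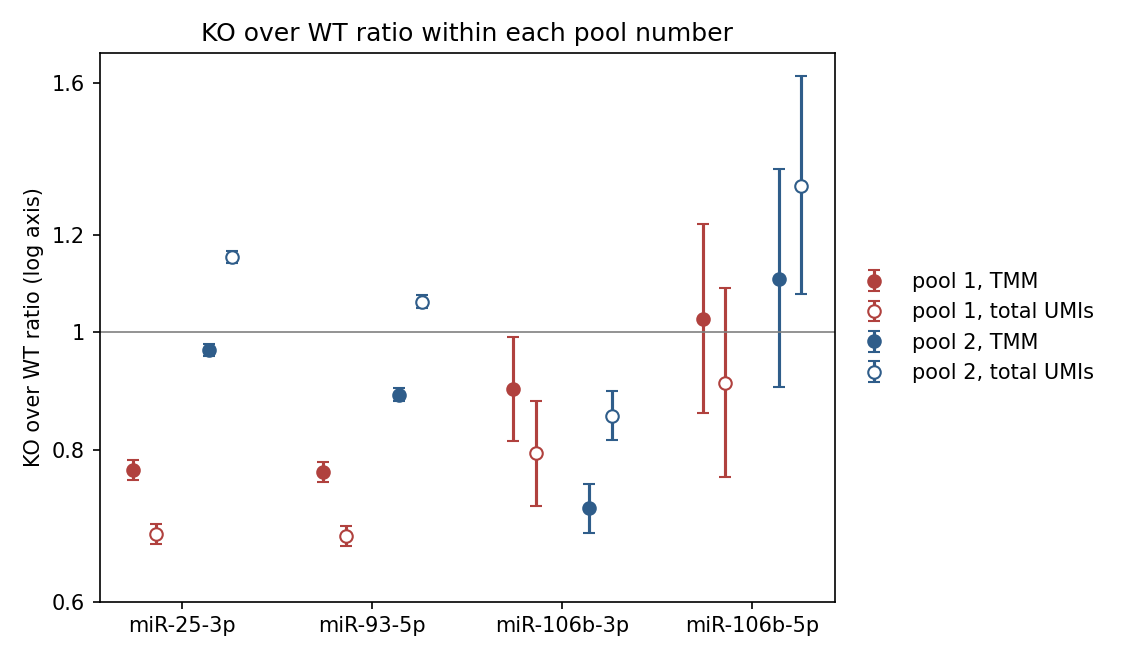
KO over WT ratio (log axis) of each cluster member in pool 1 (red) and pool 2 (blue), scaled with TMM (filled) or on total UMIs (open), with exact 95% intervals for counting error as bars and a line at a ratio of 1. miR-106b-3p lies below 1 in all 4 cases, while miR-25-3p and miR-93-5p in pool 2 lie below 1 with TMM and above it on total UMIs.

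The other arms of the hairpins gave ratios near those of the main arms. The KO over WT ratios of miR-93-3p were 0.823 (0.662 to 1.02) and 0.771 (0.654 to 0.908) for pools 1 and 2, and those of miR-25-5p were 0.714 (0.546 to 0.930) and 0.873 (0.725 to 1.05). On total UMIs the pool 2 ratio of miR-25-5p turned to 1.04, and that of miR-93-3p was 0.918. Neither passed the edgeR test (log2 fold change -0.34, SE 0.58, and -0.28, SE 0.61, adjusted p 0.99995 each).

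Because plasma carries vesicles and RNA of many cells, marker miRNAs were set beside the members. In these pooled libraries, fewer vesicles from a cell type and less miRNA per vesicle cannot be told apart. The 7 red cell miRNAs (both arms of miR-144, miR-486a and miR-486b, and miR-451a) together held 8.56% and 18.2% of miRNA UMIs in KO pools 1 and 2, against 11.4% and 18.8% in WT pools 1 and 2. Like miR-93-5p and miR-25-3p they were lower in KO, in 7 of 7 cases in pool 1 and 6 of 7 in pool 2 with TMM, where 50.7% and 51.9% of all miRNAs tested were lower. On total UMIs it was 7 and 2 of 7, against 65.3% and 31% of all tested. The KO over WT ratio of their sum was 0.844 in pool 1 and 0.812 in pool 2 with TMM, and 0.748 and 0.968 on total UMIs. Arms of one hairpin are not separate cases, and the arms of miR-486a and miR-486b had pool 1 ratios of 0.844 to 0.858 with TMM. Most of the sum was miR-486b-5p, with 6.35% and 15.0% of miRNA UMIs in KO and 8.49% and 15.7% in WT. The 6 leukocyte miRNAs went the other way in pool 1, with 5.42% and 1.58% in KO and 2.88% and 1.59% in WT. The ratios of their sum were 2.13 and 0.835 with TMM, and 1.88 and 0.995 on total UMIs. Most of the sum in KO pool 1 was miR-223-3p, at 3.86%, with a pool 1 ratio of 2.79 with TMM. In pool 1 all 6 were higher in KO with either scaling. In pool 2, 5 of the 6 were lower in KO with TMM and 1 of the 6 on total UMIs, against 51.9% and 31% of all tested. The 2 hepatocyte miRNAs, the arms of miR-122, held 7.06% and 19.7% in KO and 10.6% and 26.6% in WT, with ratios of 0.755 and 0.620. Muscle miRNAs, 4 on the list, held 3.73% and 0.690% in KO and 0.404% and 0.428% in WT. The ratios of their sum were 10.4 and 1.35 with TMM, although 3 of the 4 were lower in KO in pool 2 on that scale. On total UMIs the ratios were 9.22 and 1.61, and 1 of the 4 was lower in KO in pool 2. No miRNA on these lists was at 0 in any library, and none passed the edgeR test after adjustment. At an unadjusted edgeR p under 0.05 there were 2 of the 4 muscle miRNAs and 0 on the other marker lists, against 1.78% of all miRNAs tested. The part of these cell types in the members' levels was not tested.

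**Figure D4:**
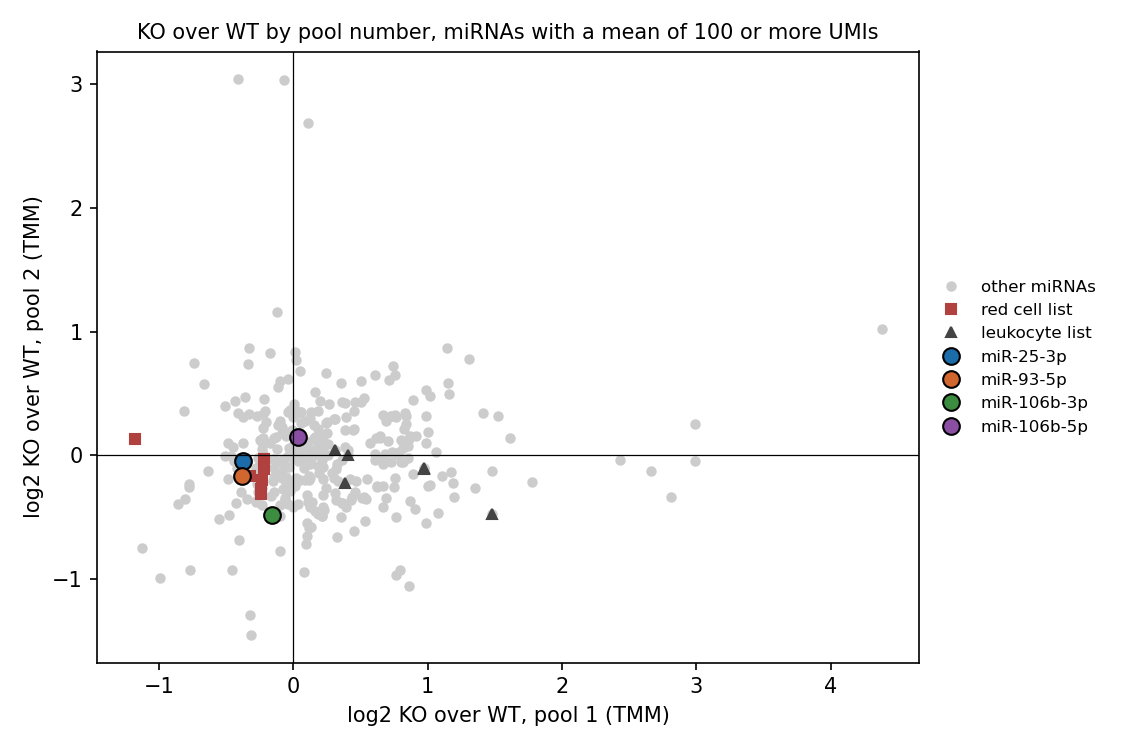
log2 KO over WT ratio in pool 1 (horizontal) and in pool 2 (vertical), TMM scaled, for the 352 miRNAs averaging at least 100 UMIs, with the cluster members, the red cell list and the leukocyte list marked where they reach that level. miR-25-3p, miR-93-5p and miR-106b-3p lie below 0 on both axes with most of the red cell miRNAs, and miR-106b-5p lies close to 0 on both.

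Within the miR-17 seed family, which also draws on the miR-17/92a cluster of chromosome 14 and the miR-106a to miR-363 cluster of the X chromosome, the Mcm7 intron supplied nearly everything. Of the UMIs of its 6 listed miRNAs, miR-93-5p made up 92.2% and 96.4% in KO pools 1 and 2 and 93.9% and 96.7% in WT pools 1 and 2. The cluster's other member of that family, miR-106b-5p, made up 1.29% and 0.422% in KO and 0.985% and 0.340% in WT. It came after miR-20a-5p, which had 823 and 1055 UMIs in KO and 836 and 798 in WT, and after miR-17-5p, which had 261 and 592 in KO and 301 and 395 in WT. miR-20b-5p (140 and 117 in KO, 138 and 165 in WT) and miR-106a-5p (35 and 21 in KO, 40 and 33 in WT) were lower still, except that WT pool 2 had more miR-20b-5p than miR-106b-5p.

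In the miR-25 seed family 2 miRNAs shared the total. miR-25-3p made up 58.1% and 58.7% of its UMIs in KO pools 1 and 2, against 62.9% and 56.5% in WT pools 1 and 2, and miR-92a-3p, which is made from the miR-17/92a and the miR-106a to miR-363 clusters, supplied 40.5% and 40.8% in KO and 35.9% and 43.2% in WT. Counts of miR-92a-3p were 13958 and 44210 UMIs in KO and 15438 and 36821 in WT. miR-92b-3p had 304 and 293 UMIs in KO and 373 and 207 in WT, miR-32-5p 126 and 212 in KO and 130 and 87 in WT, and miR-363-3p and miR-367-3p 41 or fewer in every library. In pool 1 the ratio of miR-92a-3p was 0.942 (0.920 to 0.964) where that of miR-25-3p was 0.770, and in pool 2 it was 0.880 (0.868 to 0.892) where that of miR-25-3p was 0.967. The intervals do not overlap in either pool, and the order of the pair is opposite in the 2 pools.

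**Figure D5:**
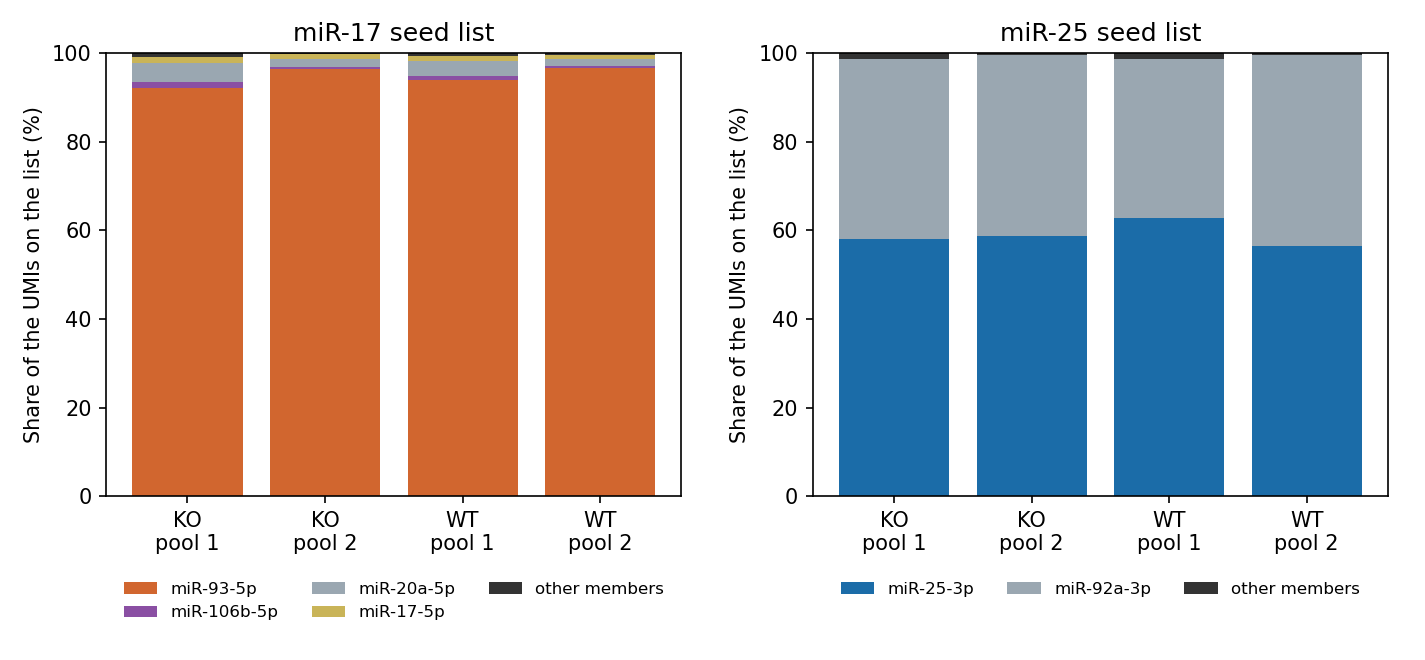
Share (percent) of the UMIs of the 6 miRNAs with the miR-17 seed (left) and of the 6 with the miR-25 seed (right) held by each miRNA in the 4 libraries. miR-93-5p holds 92.2% or more of the first in every library, while miR-25-3p holds 56.5% to 62.9% of the second and miR-92a-3p most of the remainder.

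Of the paralogue clusters, miR-17/92a showed a like spread of levels among neighbours. In the miR-17/92a cluster, 12 miRNAs on the list, miR-92a-3p alone held 86.4% and 92.8% of the cluster's UMIs in KO pools 1 and 2 and 87.4% and 93.6% in WT pools 1 and 2, although some of it may come from the X chromosome copy. The whole list held 0.945% and 1.31% of miRNA UMIs in KO and 1.12% and 1.24% in WT, so KO pool 1 was again the lowest. The 10 miRNAs of the miR-106a to miR-363 list held 0.0308% and 0.0158% in KO and 0.0344% and 0.0148% in WT. That list leaves out miR-92a-3p and miR-19b-3p, which were counted with the miR-17/92a list. No single miRNA held most of its UMIs. miR-20b-5p held 26.6% and 20.5% of them in KO and 25.5% and 35.1% in WT. For miR-18b-5p it was 16.7% and 21.5% in KO and 12.5% and 19.8% in WT. Of the miRNAs tested, 0 of 12 and 0 of 10 passed, with 7 of 12 and 6 of 10 estimates higher in KO, against 851 of 1797 over all miRNAs tested. The median log2 fold change was 0.03 for the miR-17/92a list and 0.11 for the miR-106a to miR-363 list, against -0.18 for the 4 members of the Mcm7 cluster and -0.03 for all miRNAs tested.

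The miRNAs whose pattern over the 4 libraries was most like each member were sought among the 352 averaging at least 100 UMIs, by the root mean square difference of centred log2(CPM + 1). This is a description over 4 libraries that share pool number and depth. For miR-93-5p the nearest was miR-25-3p, at 0.044, followed by miR-325-3p at 0.076 and miR-101b-3p at 0.14, where the median over all was 0.72. For miR-25-3p they were miR-93-5p, miR-325-3p at 0.092 and miR-211-3p at 0.13, where the median was 0.70. The leading pair of the cluster are thus each other's nearest pattern. miR-106b-3p was nearest to miR-486b-5p, at 0.073, then to miR-122-5p at 0.18 and miR-486a-5p at 0.26, against a median of 1.13, and its distance to miR-93-5p was 0.47. miR-106b-5p was nearest to miR-18a-5p of the miR-17/92a cluster, at 0.038, then to miR-5622-5p at 0.042 and miR-222-3p at 0.050, against a median of 0.41. From its own 3p arm its distance was 1.28, above that median, and from miR-93-5p it was 0.83.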

How the data were processed

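Small RNA of ExoQuick plasma exosome preparations was sequenced from 4 libraries made with the QIAseq miRNA kit on an Illumina NextSeq 500, per the labels' protocols. The authors deposited UMI counts and read counts per miRNA, and log2 normalized values. The log2 of the UMI count was subtracted from these values for features with a count above 0. The median difference was 0.0296 and -0.209 in KO pools 1 and 2, and -0.0276 and 0.215 in WT pools 1 and 2. The submitters' processing notes name FastQC 0.11.9 and the builds GRCm38 and mm10. No source used here names an aligner or a counting tool. UMI columns were identical in both deposited forms for 4 of 4 libraries.

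Of 1809 miRNAs listed in both pools, 1797 passed edgeR's default filter. Counts were compared with edgeR 4.0.16 (R 4.3.3; TMM, quasi-likelihood F-test, two-sided, adjusted p under 0.05), without a block, since the labels do not tie pool numbers to a batch. The SE of an edgeR estimate was derived as the absolute log2 fold change divided by the square root of its F statistic. limma 3.58.1 and DESeq2 1.42.0 were alternatives. Ratios within pools carry exact conditional binomial intervals. Shares were compared with exact permutation tests (SciPy 1.17.1, Python 3.11.15). Named miRNAs are the members, their other arms, seed relatives, marker lists and the 3 nearest patterns for each member. Members and lists were chosen with earlier results of these data known.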

Additional observations from a re-analysis of the deposited data

How the results depend on the processing

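None of the members passed the test under any of the 15 alternatives to the comparison, with edgeR, DESeq2 or limma adjusted p between 0.916 and 0.99997, and 53 of the 60 alternative fold changes kept their direction. Of the 7 that did not, 6 came from leaving out KO pool 1 or WT pool 2, which leaves the pool numbers unequal between genotypes. The other was miR-106b-5p, near 0 in both cases, when only the scaling was changed to miRNAs that averaged at least 100 UMIs. Leaving out 1 library, which makes the fit take the lone library of a genotype to vary like the others, gave log2 fold changes of -1.29 to 0.69 for miR-93-5p, -1.23 to 0.72 for miR-25-3p, -2.01 to 1.42 for miR-106b-3p and 0.03 to 0.17 for miR-106b-5p. It also gave cluster share differences of -0.92 to 0.18 percentage points and miR-106b 5p share differences of -7.03 to 11.5, and 0 to 3 calls over all miRNAs (3 without KO pool 2, 2 without WT pool 2), none a member. Same-numbered libraries deviated alike over miRNAs (correlation 0.53), but the labels do not pair them. With pool number as a replicate block the test left 1 residual degree of freedom and called 0, and the log2 fold changes were -0.28 for miR-93-5p, -0.21 for miR-25-3p, -0.32 for miR-106b-3p and 0.09 for miR-106b-5p. Scaling on miRNAs that averaged at least 100 UMIs, chosen after seeing the data, gave miR-106b-5p -0.027, and with the block it called 18 miRNAs, none a member. Ratios moved beyond their counting intervals on total UMIs for miR-93-5p (0.680 in pool 1, 1.06 in pool 2), miR-25-3p (0.682, 1.15) and miR-106b-3p (0.795, 0.853). In pool 1 they also moved with DESeq2 type size factors for miR-93-5p (0.785) and miR-25-3p (0.789) and with read counts for miR-93-5p (0.785). Counts of miR-106b-5p, 253 or fewer, limit what its ratios can show.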
